A study of Homo sapiens with 9 samples.

Results

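Chaperone genes, 36 in all, were followed by RNA-seq through 9 libraries of A549, a cell line from a human lung adenocarcinoma. They were chosen by name, as the rows of the count table for 2 heat shock factors, 8 cytosolic HSP70, HSP110 and HSP90 genes, 2 small heat shock proteins, 6 DNAJ proteins, 6 BAG and HSP90 co-chaperones, the 8 subunits of the CCT chaperonin and 4 mitochondrial chaperones. They make up 36 of the 19257 genes in the table, and 35 of them were among the 12574 genes with enough counts to be tested. The gene that was not tested was CRYAB, a small heat shock protein with 0 counts in every NC library and 0 to 9 in the others.

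The libraries fall into 3 groups of 3. NC cells received the empty Lenti-CRISPR-V2 plasmid, which carries Cas9 and no guide against a human gene, and have the genotype label WT. OGT_KO cells received a version of it directed at OGT, and TR11B_KO cells a version directed at TR11B. OGT encodes the enzyme that attaches O-GlcNAc to nuclear and cytosolic proteins, and TR11B, the UniProt entry name of osteoprotegerin, was read as the gene TNFRSF11B. All groups were grown in DMEM with serum, and no stress or heat treatment is given in the labels. The labels call the replicates biological, and they do not say whether a knockout is 1 clone, a pool, or separate cultures. P-values measure the spread between these libraries, and a knockout cannot be told apart from an effect of its guide or clone.

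Heat shock proteins bind unfolded stretches of other proteins and release them in cycles driven by ATP. HSP70 proteins receive clients from DNAJ proteins, which stimulate their ATPase, and release them with the help of nucleotide exchange factors such as HSP110 and BAG proteins. Clients such as kinases then pass to HSP90 through adaptor co-chaperones, and actin and tubulin are folded inside the CCT ring, which is built from 8 different subunits. Mitochondria have their own HSP70, HSP60, HSP10 and HSP90. HSF1, the main heat shock factor, is held inactive by chaperones and on release binds heat shock elements, which are runs of inverted GAA units in the promoters of many of these genes.

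The libraries held 38327508 to 42245970 counts, so sequencing depth differed little between groups. The targeted genes were checked first. For OGT, CPM (counts scaled to a common library size by the TMM method) were 29.6, 26.9 and 24.7 for NC, 21.1, 28.3 and 22.9 for the libraries labelled OGT_KO, and 17.04, 11.5 and 12.4 for TR11B_KO. OGT RNA did not pass the test in OGT_KO, where the values overlapped NC (log2 fold change −0.17 ± 0.21 (SE), adjusted p = 0.607 by edgeR's quasi-likelihood test), and it fell in TR11B_KO (−0.99 ± 0.21, adjusted p = 0.00393). RNA levels therefore do not check the OGT_KO label, and each direction given for OGT_KO is that of the libraries so labelled. TNFRSF11B was too low to be tested: NC gave 13, 15 and 3 counts, OGT_KO 1, 0 and 0, TR11B_KO 3, 1 and 0. OGA, the gene of the enzyme that takes O-GlcNAc off again, fell in OGT_KO (−1.12 ± 0.37, adjusted p = 0.0474) from 4.83, 5.01 and 3.94 CPM to 2.16, 3.13 and 1.05. The library that differed most from the rest was TR11B_KO replicate 2, with a TMM factor of 0.784 against 0.951 to 1.16 in the rest and counts in 14128 genes against 14581 to 14954. Of 12 A549 and lung epithelium markers, NKX2-1 and SFTPC were not in the table. Counts were present for 9 of the other 10, with CDH1 at 0, and 3 of the 10 had enough counts to be tested. The summed level of the 10 was 10700 to 12100 FPKM in NC, 6640 to 7670 in OGT_KO and 8760 to 11000 in TR11B_KO. The blood markers (2 of 6 in the table), fibroblast markers (4 of 6) and endothelial markers (3 of 6, with PECAM1 at 0) each summed to at most 0.147 FPKM in every library.

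In the edgeR fit of all 9 libraries, most of the calls among the chaperone genes were falls. Against NC, 2 of the 35 tested genes rose and 8 fell in OGT_KO, or 28.6% of them, beside 18.3% of all tested genes (8.26% higher and 10.1% lower). In TR11B_KO 1 gene rose and 9 fell, again 28.6%, beside 27.6% of all tested genes (13.2% higher and 14.3% lower). For TR11B_KO the share called was thus near that of the whole table, and the share that fell, 9 of 35, stood beside 14.3%. The median log2 fold change of the 35 genes was −0.35 in OGT_KO, where that of all tested genes was 0.03, and −0.31 in TR11B_KO, where it was −0.01. In each comparison 26 of the 35 values were below 0. The CPM values of OGT_KO and NC did not overlap for 26 of the 35 genes (49.8% of all tested genes), and those of TR11B_KO and NC for 13 (40.9%). Both comparisons use the same NC libraries. The 36 genes took 0.997% ± 0.059 (SD, n = 3) of all counts in NC, 0.758% ± 0.063 in OGT_KO and 0.706% ± 0.19 in TR11B_KO, where replicate 2 was lowest at 0.53%. Fewer cells with a gene on and less RNA per cell cannot be told apart in such bulk libraries.

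**Figure D1:**
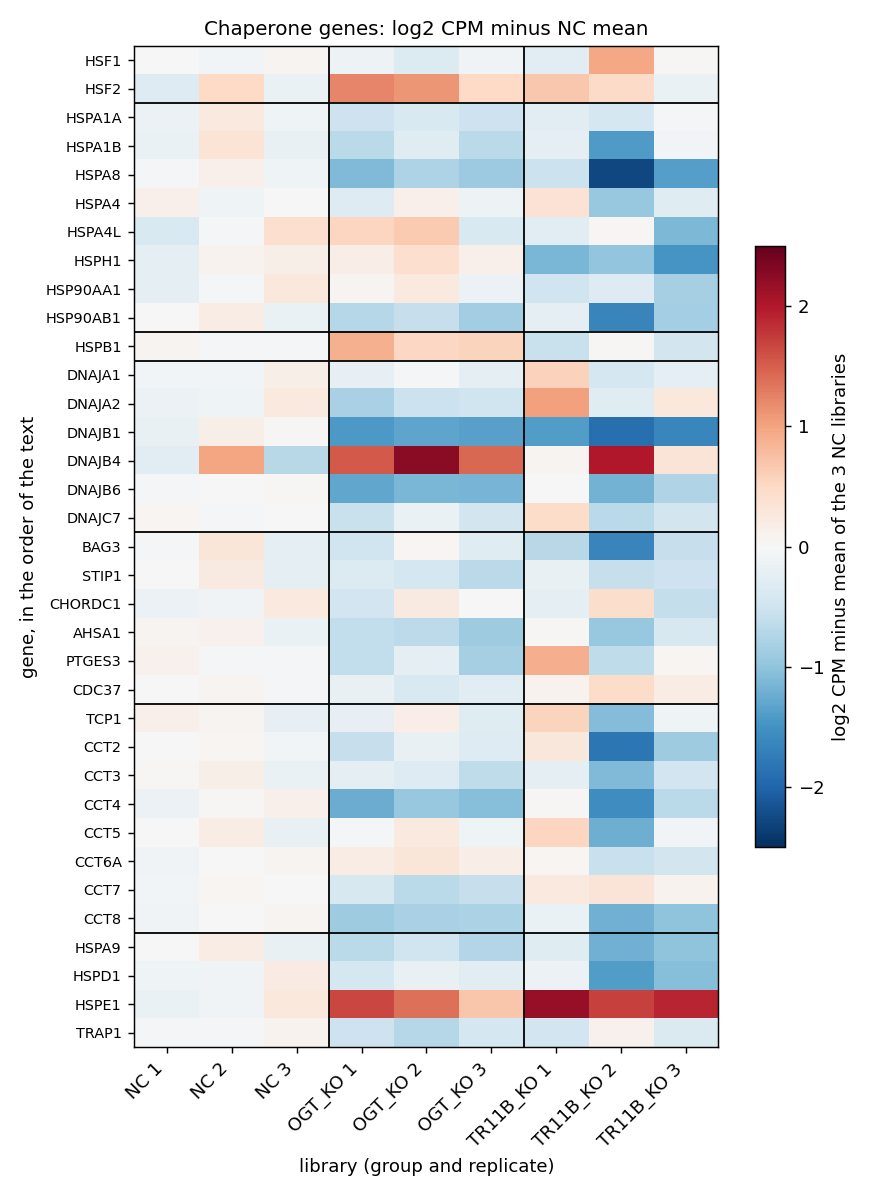
Each row is a tested gene and each column a library, and the colour gives its log2 CPM minus the mean of the 3 NC libraries (blue lower, red higher), with lines between the 7 gene groups and between the sample groups. DNAJB1 is blue in all 6 knockout libraries and HSPE1 red in all 6, and TR11B_KO replicate 2 has the deepest blue cells, such as HSPA8.

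The counts of calls depended on single libraries. The 10 calls of OGT_KO against NC became 3 or 4 when any NC or OGT_KO library was left out. They became 16 without TR11B_KO replicate 1 and 19 without TR11B_KO replicate 2. Over all tested genes the 2303 calls became 1072 to 1447, 3341 and 4536 in these fits. All libraries share 1 estimate of the spread, and its part in these shifts was not tested. The 10 calls of TR11B_KO against NC became 4 without NC replicate 1 or 2 and 6 without NC replicate 3 or any OGT_KO library. They became 18 without TR11B_KO replicate 1, 14 without replicate 2 and 5 without replicate 3. All tested genes moved as well: their 3469 calls became 1866, 1813 and 2715 without NC replicates 1, 2 and 3. Without an OGT_KO library they became 2905 to 3037, and without TR11B_KO replicates 1, 2 and 3 they became 4463, 4386 and 2723. All 10 TR11B_KO calls were also made without TR11B_KO replicate 2, with values of −0.64 for HSP90AA1, −0.48 for HSP90AB1, −1.49 for DNAJB1, −0.62 for BAG3, −0.50 for CCT8, −0.60 for HSPA9, −0.51 for HSPD1 and 2.08 for HSPE1. In OGT_KO the split of the calls also depended on the setting, and that of all tested genes moved as well. Library totals gave 2 higher and 4 lower, beside 1369 and 890 of all tested genes. With limma on log2(FPKM + 1) the split was 4 and 4, beside 1654 and 887. With limma on log2(FPKM + 0.1) it was 3 and 4, beside 1488 and 850. In TR11B_KO these settings gave 1 higher and 8 to 11 lower, beside 1174 to 1197 and 1914 to 2030 of all tested genes. DNAJB1, DNAJB6 and HSPE1 in OGT_KO, and HSPA8, HSPH1, DNAJB1 and HSPE1 in TR11B_KO, kept their calls in all 21 alternative settings. Throughout, a gene that passed or did not pass is meant in the edgeR fit of all 9 libraries. Of the 25 genes not called in OGT_KO 14 were called in at least 1 alternative, as were 14 of the 25 in TR11B_KO and 15 of the 28 not called between the knockouts.

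Promoter windows of 33 of the 36 genes were matched by symbol in RefSeq (GRCh38.p14), 48 windows in all, since 12 genes have more than 1 annotated start. Each window runs from 250 bases before a start to 50 after it. The full heat shock element, searched as GAANNTTCNNGAA or TTCNNGAANNTTC, which covers both strands, was found in 7 of the 48 windows (14.6%), belonging to 7 genes. It was in 0.49% of all 35116 promoter windows and in 0.337% of the 14548 windows of tested genes. A match of 2 units (GAANNTTC or TTCNNGAA, part of every full element) was in 39.6% of the windows of the chaperone genes, 13.5% of all windows and 10.1% of those of tested genes. CCAAT or ATTGG was in 31.2%, 34.6% and 34.6%, and TATAAA or TTTATA in 10.4%, 11.5% and 5.84%. The 7 genes with a full element were HSPA8, HSP90AA1, HSP90AB1, DNAJA1, DNAJB6, CHORDC1 and HSPD1. Only exact matches of the letters were counted, so an element with a mismatch in a unit was missed.

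The full elements are shown for HSPA8, which has one at each end of its upstream stretch, for DNAJB6, CHORDC1 and DNAJA1, and for HSP90AB1. Each stretch is from RefSeq, GRCh38.p14, read 5′ to 3′ on the strand of its gene, and capitals mark the full element. The HSPA8 stretch is chr11:123062137-123062386 (minus strand), the 250 bases before the start.
HSPA8: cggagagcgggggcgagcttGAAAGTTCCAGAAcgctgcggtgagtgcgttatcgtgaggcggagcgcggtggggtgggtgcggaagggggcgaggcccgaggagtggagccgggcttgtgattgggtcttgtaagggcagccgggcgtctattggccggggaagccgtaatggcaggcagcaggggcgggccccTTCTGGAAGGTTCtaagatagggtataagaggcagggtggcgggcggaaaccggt
The HSP90AB1 stretch, chr6:44247763-44247858 (plus strand), lies before the last of 3 annotated starts and holds 2 elements.
HSP90AB1: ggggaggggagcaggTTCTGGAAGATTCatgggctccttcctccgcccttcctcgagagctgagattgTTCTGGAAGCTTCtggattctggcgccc
The DNAJB6 stretch is chr7:157336858-157336900 (plus strand), the CHORDC1 stretch chr11:90223072-90223124 (minus strand), where 3 overlapping matches form 1 longer run, and the DNAJA1 stretch chr9:33025268-33025296 (plus strand), where the match begins at base 4, with the start counted as base 1.
DNAJB6: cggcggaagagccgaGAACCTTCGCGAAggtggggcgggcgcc
CHORDC1: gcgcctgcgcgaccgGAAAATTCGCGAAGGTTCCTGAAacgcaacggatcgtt
DNAJA1: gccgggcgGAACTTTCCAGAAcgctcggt

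The heat shock factors did not pass in any comparison by edgeR or DESeq2, and 1 of the 2, HSF2 in OGT_KO, had an unadjusted p under 0.05. HSF1, the factor that drives the heat shock response, was among the more abundant of the 36 genes in NC at 142 FPKM (the deposited values per gene length, FPKM, which are used here wherever genes are compared). It stood at 315, 305 and 335 CPM in NC, at 290, 252 and 299 in OGT_KO and at 262, 619 and 323 in TR11B_KO. The high value was TR11B_KO replicate 2, so the groups overlapped, and the TR11B_KO difference from NC was 0.33 ± 0.25 (adjusted p = 0.35). That HSF1 difference rested on single libraries: it was 0.63 and called without TR11B_KO replicate 1 (adjusted p = 0.0345), −0.09 without replicate 2 (adjusted p = 0.673) and −0.20 with length and GC offsets (adjusted p = 0.195). Between the knockouts HSF1 differed by −0.52 (adjusted p = 0.13), and it was called with no low-count filter (−0.53, adjusted p = 0.0276) and when TR11B_KO replicate 1 was left out (−0.80, adjusted p = 0.0093). HSF2, a related factor, lay near the detection limit at 17 to 56 counts per library. It was at 0.406, 0.753 and 0.460 CPM in NC and 1.27, 1.17 and 0.762 in OGT_KO, which did not overlap, and the difference of 0.98 ± 0.42 did not pass (adjusted p = 0.122). HSF2 in TR11B_KO, at 0.857, 0.742 and 0.461 CPM, overlapped NC.

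In the cytosolic HSP70 and HSP90 system, HSPA8 fell in both knockouts, and HSP90AB1, HSPH1 and HSP90AA1 fell in TR11B_KO. In OGT_KO 1 of these 8 genes fell and none rose, and in TR11B_KO 4 fell and none rose, beside 10.1% and 14.3% of all tested genes that fell. By DESeq2 the count was 3 in each knockout, HSP90AB1, HSPA1A and HSPA8 in OGT_KO and HSP90AB1, HSPA8 and HSPH1 in TR11B_KO. Their summed share of the counts was 0.359% ± 0.037 in NC, 0.235% ± 0.034 in OGT_KO and 0.183% ± 0.098 in TR11B_KO, with TR11B_KO replicate 2 at 0.0883%.

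HSPA8, the constitutive HSP70, was the second most abundant of the 36 genes in NC, at 532 FPKM after HSP90AB1. It stood at 1183, 1318 and 1114 CPM in NC, at 562, 703 and 642 in OGT_KO and at 825, 248 and 465 in TR11B_KO. Every knockout library was below every NC library, and the TR11B_KO libraries were spread more widely than those of the other groups. HSPA8 fell by 1.23 ± 0.31 on the log2 scale in TR11B_KO (adjusted p = 0.00967), and by 0.88 without TR11B_KO replicate 2 (adjusted p = 0.000122). The HSPA8 fall of 0.92 ± 0.31 in OGT_KO was just past the threshold (adjusted p = 0.0495). That call was lost when any NC or OGT_KO library or TR11B_KO replicate 3 was left out (adjusted p up to 0.168) and in 6 of 12 other settings (up to 0.183).

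HSPA1A and HSPA1B, the stress-inducible HSP70 genes, share most of their sequence: 69.9% of the 100-base windows of HSPA1A and 72.7% of those of HSPA1B occur in transcripts of another gene, so the authors' counting could split their reads either way. Counted apart, HSPA1A was at 167 to 217 CPM in NC, 128 to 142 in OGT_KO and 135 to 180 in TR11B_KO, and HSPA1B at 50.05 to 71.9, 35.3 to 46.1 and 21.4 to 54.4. Summed, HSPA1A and HSPA1B stood at 218, 289 and 221 CPM in NC, at 164, 188 and 164 in OGT_KO and at 200, 156 and 235 in TR11B_KO. The OGT_KO libraries lay below all NC libraries, and the TR11B_KO libraries overlapped NC. Neither summed difference passed (−0.50 ± 0.19, adjusted p = 0.0791 in OGT_KO, and −0.30 ± 0.19, adjusted p = 0.249 in TR11B_KO).

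HSPH1, the HSP110 that serves as nucleotide exchange factor of HSP70, had one of the clearest patterns of the set. It was at 12.7, 15.6 and 16.2 CPM in NC, at 16.6, 19.6 and 16.2 in OGT_KO and at 6.62, 7.38 and 5.25 in TR11B_KO. All TR11B_KO libraries were below all others, replicate 2 with the rest of its group. HSPH1 fell by 1.21 ± 0.21 in TR11B_KO (adjusted p = 0.0014), did not pass in OGT_KO (0.24 ± 0.21, adjusted p = 0.455), and was higher in OGT_KO than in TR11B_KO (1.45 ± 0.22, adjusted p = 0.000254). Its relatives HSPA4 and HSPA4L did not pass in any comparison. HSPA4 was at 32.8, 27.9 and 29.7 CPM in NC, at 24.1, 32.7 and 27.7 in OGT_KO and at 38.8, 15.5 and 24.4 in TR11B_KO, and HSPA4L stayed between 0.743 and 2.63 CPM in all 9 libraries.

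The HSP90 genes are HSP90AB1, the constitutive form, and HSP90AA1, the inducible form. HSP90AB1 was the most abundant of the 36 genes in NC at 700 ± 83 FPKM (SD, n = 3), and its FPKM was 24.3 to 38.3 times that of HSP90AA1 in NC, 18.5 to 19.8 times in OGT_KO and 13.2 to 39.8 times in TR11B_KO. HSP90AB1 stood at 1950, 2235 and 1757 CPM in NC, at 1201, 1321 and 1081 in OGT_KO and at 1698, 631 and 1095 in TR11B_KO, and every knockout library was below every NC library. It fell by 0.80 ± 0.27 in TR11B_KO (adjusted p = 0.04). The OGT_KO difference of −0.72 ± 0.27 did not pass (adjusted p = 0.076) and was called in 7 of the 21 alternatives. Between the knockouts the HSP90AB1 difference of 0.07 ± 0.27 did not pass (adjusted p = 0.855). HSP90AA1 was at 70.3, 81.5 and 99.6 CPM in NC, at 86.5, 98.6 and 75.2 in OGT_KO and at 58.9, 65.9 and 46.7 in TR11B_KO. It fell by 0.55 ± 0.19 in TR11B_KO (adjusted p = 0.0456), with no overlap with either other group, and was 0.60 ± 0.19 higher in OGT_KO than in TR11B_KO (adjusted p = 0.0268). Both TR11B_KO calls were lost when any NC or OGT_KO library or the third TR11B_KO library was left out (highest adjusted p 0.138 for HSP90AB1 and 0.177 for HSP90AA1), and that of HSP90AA1 also without TR11B_KO replicate 1. The TR11B_KO call of HSP90AA1 was also lost in 8 of the 12 settings that keep all libraries, with −0.18 under length and GC offsets (adjusted p = 0.592). That of HSP90AB1 was lost in 4 of these 12 settings (adjusted p up to 0.0938). The difference of HSP90AA1 between the knockouts was lost without OGT_KO replicate 1 or 2 or TR11B_KO replicate 3 (highest adjusted p 0.123) and in 5 of 12 other settings, with 0.37 under the GC offset (adjusted p = 0.221) and 0.37 under length and GC offsets (adjusted p = 0.229).

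HSPB1, the small heat shock protein HSP27, holds unfolded proteins without using ATP. It was at 191, 178 and 177 CPM in NC, at 338, 259 and 268 in OGT_KO and at 123.0, 185 and 132 in TR11B_KO. All OGT_KO libraries were above all others, and the TR11B_KO libraries overlapped NC through replicate 2. HSPB1 rose by 0.66 ± 0.19 in OGT_KO (adjusted p = 0.0258), a call lost when any NC or OGT_KO library was left out (adjusted p up to 0.135) and with the length offset (0.57, adjusted p = 0.0522). It did not pass in TR11B_KO (−0.31 ± 0.19, adjusted p = 0.229), and it was 0.97 ± 0.19 higher in OGT_KO than in TR11B_KO (adjusted p = 0.00164), a call made in all 21 alternatives with values up to 1.80 under length and GC offsets. HSPB1 is short, 777 bases by the authors' gene length, and its TR11B_KO value moved with the handling of length: it was −0.91 with a length offset (adjusted p = 0.00544) and −1.29 with length and GC offsets (adjusted p = 2.64e-05). Without TR11B_KO replicate 2 it was −0.48 (adjusted p = 0.00984).

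**Figure D2:**
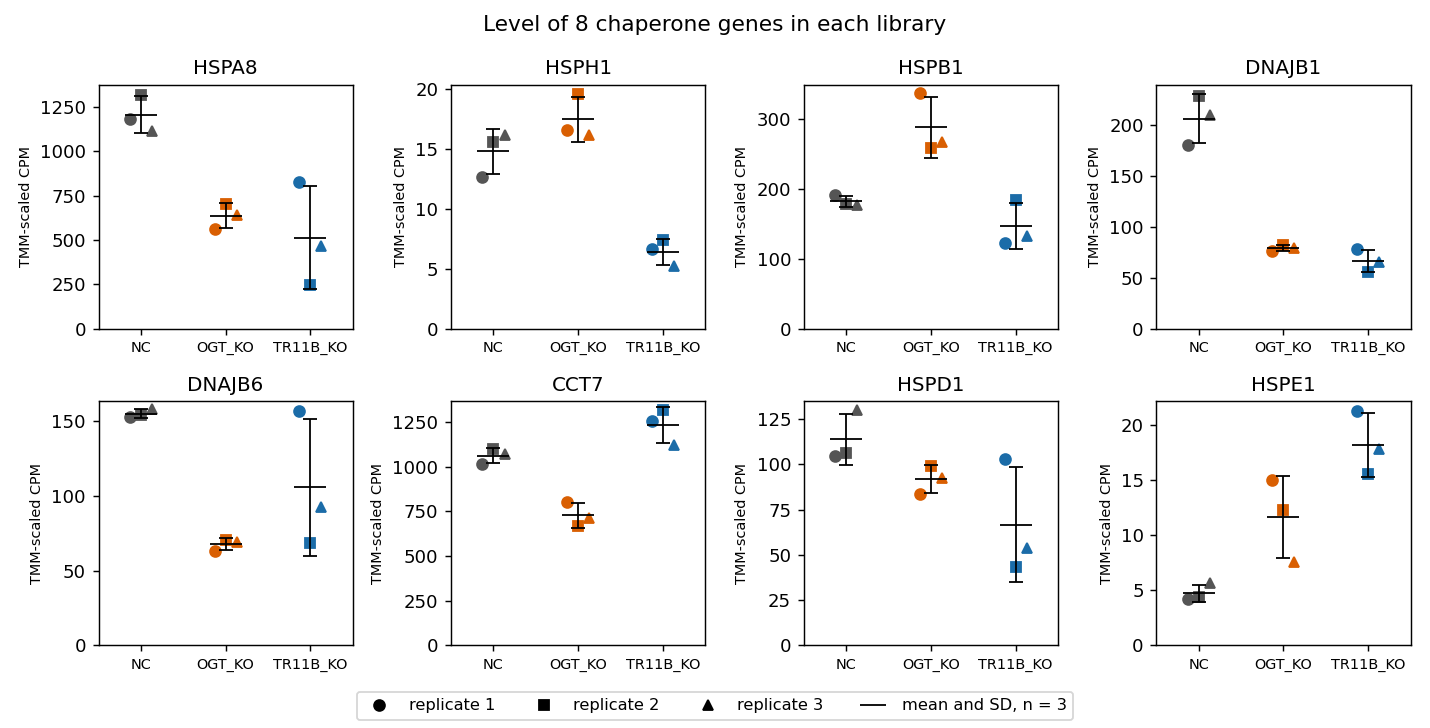
TMM-scaled CPM (vertical axes, from 0) of 8 genes in the 3 groups, with a point per library shaped by replicate and the mean and SD of 3 libraries in black. DNAJB1 and HSPA8 were lower in all 6 knockout libraries than in NC, HSPE1 higher in all 6, HSPH1 low in TR11B_KO, and HSPB1 highest in OGT_KO.

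Among the DNAJ proteins, DNAJB1 fell in both knockouts and DNAJB6 in OGT_KO. DNAJB1, the HSP40 partner of HSP70 that is itself a classic heat shock target, was at 181, 229 and 210 CPM in NC, at 76.2, 81.8 and 79.8 in OGT_KO and at 78.2, 55.9 and 66.1 in TR11B_KO. Every knockout library was well below the lowest NC library, and the knockout groups overlapped each other. DNAJB1 fell by 1.38 ± 0.17 in OGT_KO (adjusted p = 0.000172) and by 1.63 ± 0.18 in TR11B_KO (adjusted p = 7.5e-05), which are 2.6-fold and 3.1-fold lower levels. Over the 21 alternatives the adjusted p of DNAJB1 reached at most 0.00295 in OGT_KO and 0.00208 in TR11B_KO. The difference between the knockouts did not pass (0.25 ± 0.17, adjusted p = 0.282). DNAJB1 has 3 annotated starts, and no window of it holds an exact match of the full heat shock element, a search that misses elements with a mismatch. The 250 bases before the second start, chr19:14518398-14518647 (minus strand, RefSeq, GRCh38.p14), hold 2 matches of 2 units, in capitals, and are shown because DNAJB1 had the smallest adjusted p of the set in both knockouts.
DNAJB1: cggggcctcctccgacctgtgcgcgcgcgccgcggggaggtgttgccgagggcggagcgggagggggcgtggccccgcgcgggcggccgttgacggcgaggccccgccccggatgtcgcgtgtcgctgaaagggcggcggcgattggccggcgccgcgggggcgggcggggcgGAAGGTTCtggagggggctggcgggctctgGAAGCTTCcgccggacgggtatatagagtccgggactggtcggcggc

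DNAJB6, which suppresses aggregation of polyglutamine proteins, was at 153, 154 and 158 CPM in NC, at 62.9, 70.2 and 69.2 in OGT_KO and at 157, 68.2 and 92.1 in TR11B_KO. OGT_KO was below NC with no overlap, and TR11B_KO replicate 1 lay within NC while the other TR11B_KO libraries lay below it. DNAJB6 fell by 1.20 ± 0.24 in OGT_KO (adjusted p = 0.00408) and did not pass in TR11B_KO (−0.55 ± 0.24, adjusted p = 0.1). In TR11B_KO it was called in 2 of the 21 alternatives, with −0.89 without TR11B_KO replicate 1 (adjusted p = 0.00101). The DNAJB6 difference between the knockouts, −0.65 ± 0.24, lay at the threshold and did not pass (adjusted p = 0.05). It was called in 7 of the 21 alternatives. DNAJA2, a cytosolic HSP40, was at 51.9, 53.2 and 67.8 CPM in NC, at 32.5, 39.2 and 40.3 in OGT_KO and at 116, 46.2 and 68.7 in TR11B_KO. Neither knockout passed against NC (−0.63 ± 0.27, adjusted p = 0.116, and 0.42 ± 0.27, adjusted p = 0.261), but DNAJA2 was 1.04 ± 0.27 lower in OGT_KO than in TR11B_KO (adjusted p = 0.00902), where the groups did not overlap. That difference was lost with library totals and with limma on log2 FPKM (adjusted p up to 0.147).

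The remaining DNAJ genes did not pass. DNAJA1, a general HSP70 partner, was at 53.2 to 69.2 CPM in NC and OGT_KO and at 93.3, 46.2 and 53.0 in TR11B_KO. DNAJC7, which binds HSP70 and HSP90 together, was at 32.8, 30.6 and 32.3 CPM in NC, at 21.6, 28.3 and 23.2 in OGT_KO and at 43.7, 20.02 and 23.3 in TR11B_KO. DNAJB4 was near the detection limit, with 5, 15 and 3 counts in the NC libraries, 24, 41 and 21 in those of OGT_KO and 7, 24 and 8 in those of TR11B_KO, and it met the count filter through its OGT_KO level. Its difference of 1.82 ± 0.71 in OGT_KO did not pass (adjusted p = 0.0921).

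The 6 BAG and HSP90 co-chaperones showed 1 fall in each knockout and no rise, beside 10.1% and 14.3% of all tested genes that fell. BAG3, the stress-inducible exchange factor that links HSP70 to autophagy, was at 28.8, 36.7 and 25.1 CPM in NC, at 21.1, 30.8 and 24.2 in OGT_KO and at 18.4, 9.45 and 20 in TR11B_KO. TR11B_KO was below both other groups with no overlap. BAG3 fell by 0.92 ± 0.27 in TR11B_KO (adjusted p = 0.0216) and did not pass in OGT_KO (−0.26 ± 0.27, adjusted p = 0.542). That TR11B_KO call was lost without NC replicate 1 or 2 (adjusted p up to 0.107) and in the fit of only the groups compared (0.0558). The BAG3 difference between the knockouts, 0.665 ± 0.268, did not pass (adjusted p = 0.0704) and was called in 7 of the 21 alternatives.

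AHSA1, the activator of the HSP90 ATPase, was at 179, 184 and 154 CPM in NC, at 112, 109 and 92.8 in OGT_KO and at 176, 88.8 and 131 in TR11B_KO. It fell by 0.72 ± 0.22 in OGT_KO (adjusted p = 0.0342) and did not pass in TR11B_KO, which overlapped NC. That OGT_KO call was lost when any NC or OGT_KO library was left out (adjusted p up to 0.133) and in 4 of 12 other settings. The AHSA1 difference between the knockouts, −0.334 ± 0.216, did not pass (adjusted p = 0.251) and was called in 2 of the 21 alternatives. CDC37, the adaptor that brings kinases to HSP90, was at 635, 667 and 615 CPM in NC, at 565, 492 and 528 in OGT_KO and at 679, 881 and 730 in TR11B_KO. Its groups did not overlap, with OGT_KO lowest and TR11B_KO highest. Neither difference of CDC37 from NC passed (−0.27 and 0.26, each ± 0.16, adjusted p = 0.25), and the difference between the knockouts did (−0.53 ± 0.16, adjusted p = 0.0207). This last call was lost without OGT_KO replicate 2 or 3 (adjusted p up to 0.0903) and in 5 of 12 other settings. The CDC37 value was −0.26 with library totals (adjusted p = 0.0576), −0.28 after a length offset (adjusted p = 0.222), −0.31 with the GC offset (adjusted p = 0.023) and −0.11 with both offsets (adjusted p = 0.401).

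STIP1, known as HOP, which tethers HSP70 to HSP90, was at 566, 656 and 475 CPM in NC, at 443, 414 and 350 in OGT_KO and at 492, 377 and 394 in TR11B_KO. It was below all NC libraries in OGT_KO and did not pass (−0.49 ± 0.18, adjusted p = 0.0744). PTGES3, the p23 co-chaperone that stabilises the closed HSP90 dimer, was at 94.1, 85.3 and 84.3 CPM in NC, at 57.1, 74.2 and 49.1 in OGT_KO and at 165, 56.8 and 90.9 in TR11B_KO, and no comparison passed. Between the knockouts PTGES3 differed by −0.79 (adjusted p = 0.051), and it was called in 8 of the 21 alternatives, DESeq2 among them (−0.85, adjusted p = 0.0138). It was called in 5 alternatives in OGT_KO against NC. CHORDC1, an HSP90 co-chaperone whose window holds the longest run of heat shock units, was at 4.30 to 5.70 CPM in NC, 3.44 to 5.61 in OGT_KO and 3.18 to 6.55 in TR11B_KO, with differences of −0.07 ± 0.29 (adjusted p = 0.894) and −0.08 ± 0.29 (adjusted p = 0.87) from NC.

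The 8 subunits of the CCT chaperonin differed among themselves. CCT4, CCT7 and CCT8 fell in OGT_KO, CCT8 alone fell in TR11B_KO, and none rose in either. Over all tested genes 10.1% fell in OGT_KO and 14.3% in TR11B_KO. Without TR11B_KO replicate 1, CCT2, CCT3, CCT4 and CCT6A were also called as falls in TR11B_KO. The medians of the 8 subunits were −0.37 in OGT_KO and −0.42 in TR11B_KO. Levels per gene length were far from equal in every library. CCT7 was highest in all 9 libraries, at 504, 542 and 532 FPKM in NC. CCT3 came next at 413 ± 41 FPKM in NC, CCT5 at 82.7 ± 10.3, and the other 5 subunits at 24.3 to 50.6. The lowest subunit was CCT6A in NC and CCT8 in OGT_KO and in TR11B_KO replicates 1 and 3, with CCT2 lowest in TR11B_KO replicate 2. The highest subunit was 20.7 to 22.2 times the lowest in NC, 22.8 to 28.9 times in OGT_KO and 27.3 to 69.3 times in TR11B_KO, where replicate 2 gave 69.3.

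**Figure D3:**
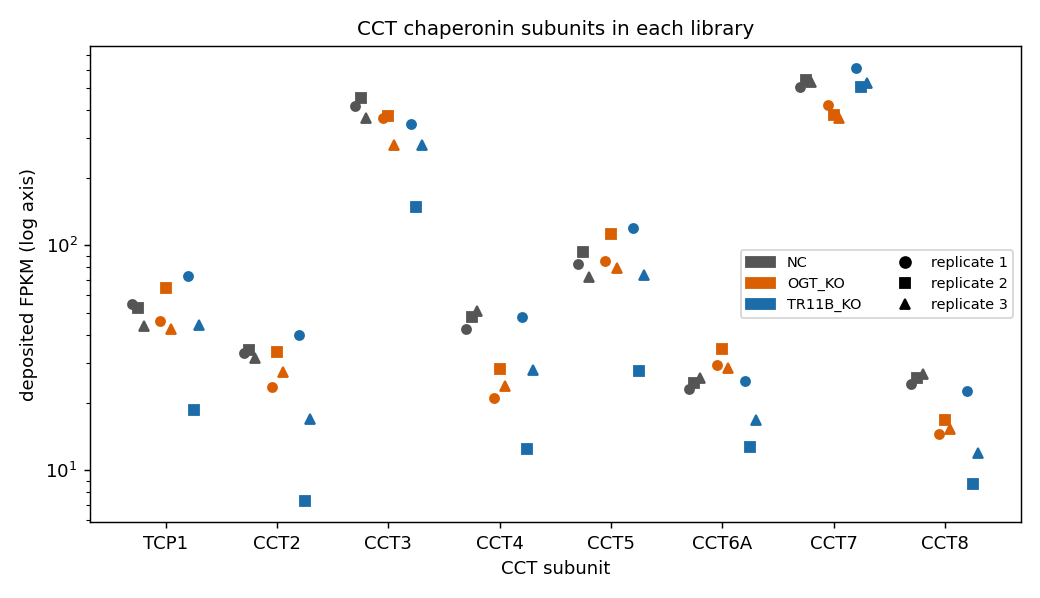
Deposited FPKM (log axis) of the 8 CCT subunits in each of the 9 libraries, coloured by group and shaped by replicate. CCT7 and CCT3 lie above the other subunits, CCT4 and CCT8 are lower in OGT_KO than in NC, and TR11B_KO replicate 2 is lowest for every subunit but CCT7.

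CCT4 was at 101, 114 and 121 CPM in NC, at 47.2, 58.0 and 53.8 in OGT_KO and at 115, 38.02 and 70.1 in TR11B_KO. It fell by 1.08 ± 0.29 in OGT_KO (adjusted p = 0.0194) with no overlap, and TR11B_KO spanned a range from within NC to below OGT_KO. The TR11B_KO difference of CCT4, −0.59 ± 0.29, did not pass (adjusted p = 0.137) and was called in 3 of the 21 alternatives. Without TR11B_KO replicate 1 it was −0.99 (adjusted p = 0.00316). The CCT4 difference between the knockouts, −0.488 ± 0.287, did not pass (adjusted p = 0.206) and was called in 3 of the 21 alternatives. CCT8 was at 51.8, 55.3 and 57.2 CPM in NC, at 29.6, 31.1 and 31.4 in OGT_KO and at 48.8, 23.9 and 27.3 in TR11B_KO, and every knockout library was below every NC library. It fell by 0.84 ± 0.23 in OGT_KO (adjusted p = 0.024) and by 0.72 ± 0.23 in TR11B_KO (adjusted p = 0.0346). The OGT_KO call of CCT8 was lost when any NC or OGT_KO library was left out (adjusted p up to 0.0947), as was that of CCT4 except without NC replicate 1 (up to 0.0902), and each was also lost in 3 of 12 other settings (up to 0.104 and 0.103). The TR11B_KO call of CCT8 was lost without any NC or OGT_KO library or TR11B_KO replicate 3 (up to 0.125) and in 2 other settings.

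CCT7 was at 1014, 1097 and 1071 CPM in NC, at 805, 668 and 713 in OGT_KO and at 1253, 1319 and 1124 in TR11B_KO. Its 3 groups did not overlap, with OGT_KO lowest and TR11B_KO highest. CCT7 fell by 0.54 ± 0.16 in OGT_KO (adjusted p = 0.0269), a call lost when any NC or OGT_KO library was left out (adjusted p up to 0.108) and in 3 of the 12 further settings, with −0.35 under the GC offset (adjusted p = 0.0941). It did not pass in TR11B_KO (0.22 ± 0.16, adjusted p = 0.32), where the GC offset gave a rise that did (0.53, adjusted p = 0.0121). CCT7 was 0.76 ± 0.16 lower in OGT_KO than in TR11B_KO (adjusted p = 0.00241). That difference was called in all 21 alternatives, with −0.50 under library totals (adjusted p = 0.00589). CCT6A was at 58.5, 62.7 and 65.6 CPM in NC, at 71.0, 76.9 and 69.8 in OGT_KO and at 64.6, 41.98 and 45.4 in TR11B_KO. Neither difference of CCT6A from NC passed (0.22 ± 0.18, adjusted p = 0.429, and −0.30 ± 0.18, adjusted p = 0.246), and the knockouts differed by 0.52 ± 0.18 (adjusted p = 0.0427). That CCT6A call was lost when any NC or OGT_KO library or TR11B_KO replicate 3 was left out (adjusted p up to 0.141) and in 5 of 12 other settings, DESeq2 among them (adjusted p = 0.0513).

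The other subunits did not pass against NC. CCT3 was at 818, 888 and 724 CPM in NC, at 685, 643 and 522 in OGT_KO and at 686, 373 and 579 in TR11B_KO, below NC in all 6 knockout libraries (−0.57 ± 0.21 in TR11B_KO, adjusted p = 0.0598). CCT2 was at 63.6 to 69.1 CPM in NC, 44.9 to 58.9 in OGT_KO and 81.3, 19.1 and 36.1 in TR11B_KO. Without TR11B_KO replicate 1, CCT2 was −1.21 in TR11B_KO (adjusted p = 0.00111), CCT3 was −0.705 (adjusted p = 0.0134) and CCT6A was −0.45 (adjusted p = 0.0342). TCP1, the alpha subunit, was at 102 to 128 CPM in NC, 95.04 to 131 in OGT_KO and 55.5 to 172 in TR11B_KO, and CCT5 at 273 to 352, 286 to 367 and 133 to 452. For TCP1 and CCT5 the TR11B_KO libraries alone reached above and below the whole NC range.

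Among the 4 mitochondrial chaperones, HSPE1 rose in both knockouts, HSPD1 and HSPA9 fell in TR11B_KO, and TRAP1 fell in OGT_KO. HSPD1 encodes HSP60, a folding chamber, and HSPE1 encodes HSP10, its lid. HSPE1 was at 4.16, 4.40 and 5.62 CPM in NC, at 15.03, 12.3 and 7.59 in OGT_KO and at 21.3, 15.5 and 17.8 in TR11B_KO. The 3 groups did not overlap, with NC lowest and TR11B_KO highest. HSPE1 rose by 1.30 ± 0.26 in OGT_KO (adjusted p = 0.00432) and by 1.95 ± 0.27 in TR11B_KO (adjusted p = 0.000335), 2.46-fold and 3.85-fold higher levels, and both calls held in all 21 alternatives. With the length offset the HSPE1 rise in TR11B_KO was smaller, 1.21 (adjusted p = 0.00485), and 1.41 with length and GC offsets (adjusted p = 0.000557). Knockouts differed by −0.64 ± 0.26 for HSPE1, which did not pass (adjusted p = 0.0676). That difference passed with the GC offset (−0.77, adjusted p = 0.0164) and by DESeq2, and was −0.03 with the length offset (adjusted p = 0.935).

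HSPD1 was at 105, 107 and 130 CPM in NC, at 83.7, 99.2 and 92.5 in OGT_KO and at 103, 43.2 and 53.9 in TR11B_KO, below all NC libraries in each knockout. It fell by 0.77 ± 0.26 in TR11B_KO (adjusted p = 0.0389) and did not pass in OGT_KO (−0.31 ± 0.26, adjusted p = 0.43). That TR11B_KO call was lost when any NC or OGT_KO library or TR11B_KO replicate 3 was left out (adjusted p up to 0.136). It was also lost in 2 of 12 other settings. The HSPD1 difference between the knockouts, 0.463 ± 0.257, did not pass (adjusted p = 0.181) and was called in 2 of the 21 alternatives. The ratio of HSPD1 to HSPE1 FPKM was 5.46 to 5.95 in NC, 1.31 to 2.88 in OGT_KO and 0.657 to 1.14 in TR11B_KO, with no overlap between the groups. The genes lie head to head on chromosome 2, HSPD1 on the minus strand from 197500274 and HSPE1 on the plus strand from 197500379 (RefSeq, GRCh38.p14). The 104 bases between these starts, chr2:197500275-197500378, read on the plus strand toward HSPE1, are shown because both genes border them, and 74.0% of them are G or C.
HSPD1-HSPE1: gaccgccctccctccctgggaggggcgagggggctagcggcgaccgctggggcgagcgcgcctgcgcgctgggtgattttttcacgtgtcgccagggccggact
Of the exonic bases of HSPE1 in GENCODE 29, 23.9% also lie in exons of HSPD1 or of the readthrough gene HSPE1-MOB4, and 17.04% of its 100-base windows occur in transcripts of other genes. No source used here says whether the library kit kept strand, so reads of the overlap cannot be told apart, and HSPE1 is short, 557 bases. Its counts were 174, 187 and 220 in the NC libraries, 661, 546 and 319 in those of OGT_KO and 893, 481 and 695 in those of TR11B_KO. HSPE1-MOB4 was not analysed here, and MOB4 had 0 counts in 8 libraries and 4 in TR11B_KO replicate 2.

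**Figure D4:**
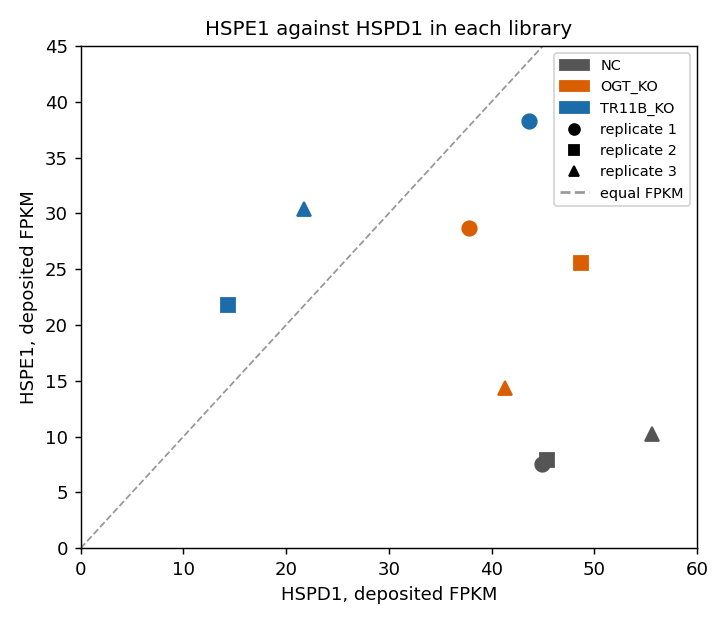
HSPE1 (vertical) against HSPD1 (horizontal) in deposited FPKM, with a point per library and a dashed line at equal levels. The NC libraries sit near the bottom right, the OGT_KO libraries above them, and TR11B_KO replicates 2 and 3 lie above the line of equal levels.

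HSPA9, the mitochondrial HSP70 called mortalin, was at 94.0, 107 and 81.9 CPM in NC, at 58.4, 66.7 and 56.6 in OGT_KO and at 75.4, 40.6 and 46.7 in TR11B_KO, and every knockout library was below every NC library. It fell by 0.80 ± 0.22 in TR11B_KO (adjusted p = 0.0162), a call lost without NC replicate 1 or 2 or TR11B_KO replicate 3 (highest adjusted p 0.0785) and in 2 of 12 other settings. In OGT_KO it just missed the threshold (−0.64 ± 0.22, adjusted p = 0.0572) and was called in 8 of the 21 alternatives. The HSPA9 difference between the knockouts, 0.159 ± 0.218, did not pass (adjusted p = 0.613). TRAP1, the mitochondrial HSP90, was at 958, 976 and 1057 CPM in NC, at 700, 604 and 736 in OGT_KO and at 714, 1069 and 778 in TR11B_KO. It fell by 0.55 ± 0.18 in OGT_KO (adjusted p = 0.0467), a call lost when any NC or OGT_KO library or TR11B_KO replicate 3 was left out (adjusted p up to 0.171) and in 5 of 12 other settings. Its value was −0.37 with the GC offset (adjusted p = 0.0541). TRAP1 did not pass in TR11B_KO, where replicate 2 was above all NC libraries. The TRAP1 difference between the knockouts, −0.328 ± 0.179, did not pass (adjusted p = 0.175) and was called in 1 of the 21 alternatives.

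**Figure D5:**
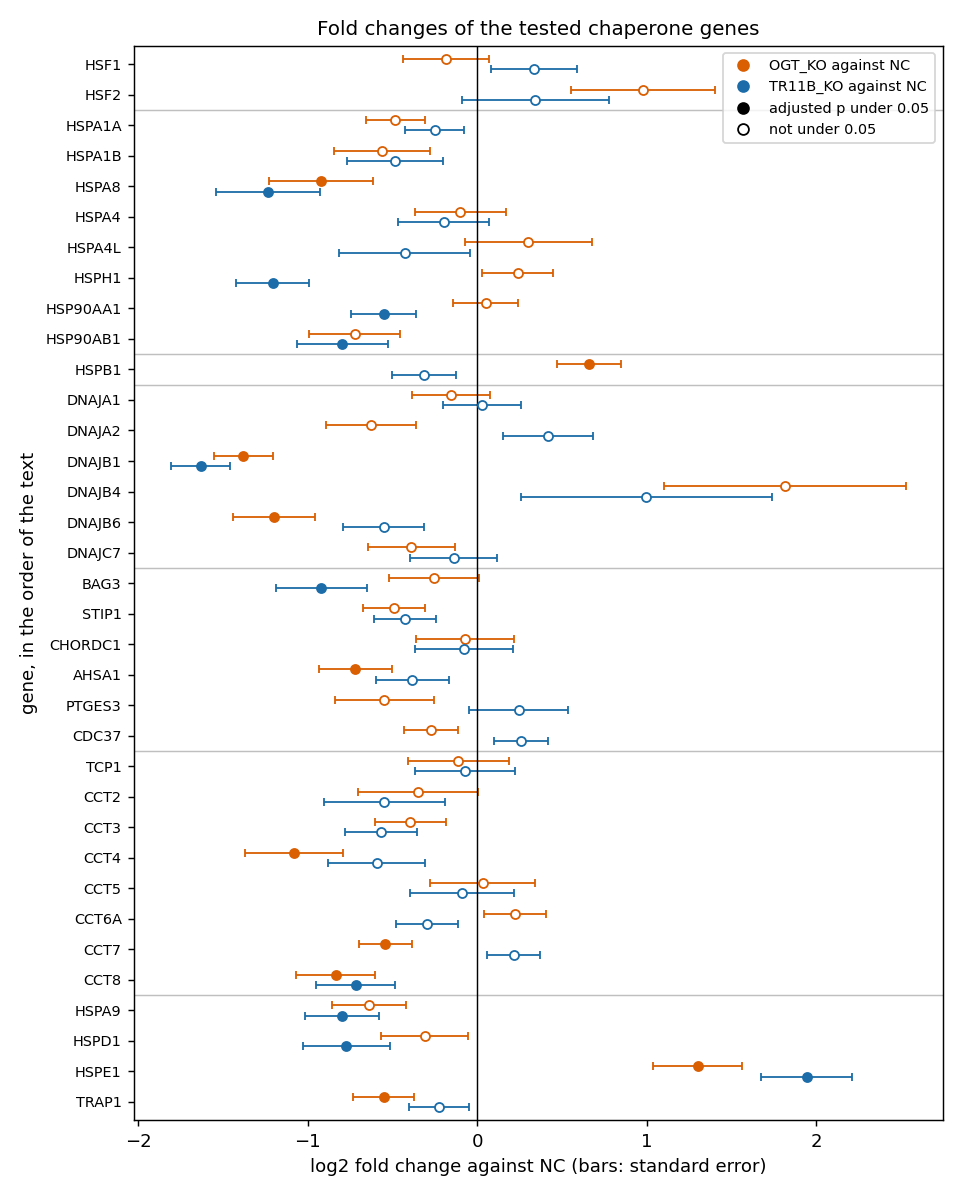
Log2 fold change against NC (horizontal) of the 35 tested genes in OGT_KO (orange) and TR11B_KO (blue), with standard errors as bars and filled points for an adjusted p under 0.05. Points to the left of 0 prevail in both comparisons, HSPE1 lies to the right in both, and HSPH1, HSPB1, DNAJA2 and CCT7 are among the genes that lie on opposite sides of 0.

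Compared directly, 4 of the 35 genes were higher and 3 lower in OGT_KO than in TR11B_KO, or 20% of them, beside 33.2% of all tested genes (16.7% higher and 16.5% lower). The median of the 35 differences was 0.00, and that of all tested genes 0.06. The higher genes were HSPH1, HSP90AA1, HSPB1 and CCT6A, and the lower ones DNAJA2, CDC37 and CCT7. The count was 13 without TR11B_KO replicate 1, 16 without replicate 2 and 4 without OGT_KO replicate 2. All tested genes gave 4909, 5307 and 2401 calls in these fits, and 4174 with all libraries. With RLE size factors the split of the set was 2 higher and 6 lower, beside 1878 and 2323 of all tested genes. With library totals it was 4 and 1, beside 3084 and 1268. HSPH1, HSPB1 and CCT7 kept their calls in all 21 alternatives.

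Library values moved with gene length and base composition, and their part in single results was not tested beyond the offsets. Median gene length was 2517 bases in the chaperone set and 3965 over the whole tested table, and median GC content 45.9% and 49.1%. Over 6689 genes, the deviation of a library from the NC mean had a rank correlation with length of −0.41, −0.32 and −0.36 in TR11B_KO replicates 1, 2 and 3, and with GC content of −0.15, 0.48 and 0.25. Of the set, 32 genes had enough reads for the same description, 14 of them with at least 50% GC and 18 below. Their median deviations were −0.51 and −1.03 in TR11B_KO replicate 2, and −0.24 and 0.05 in TR11B_KO replicate 1. Across these 32 genes the rank correlation with GC content was −0.390, 0.094 and 0.195 in TR11B_KO replicates 1, 2 and 3. It was thus near 0 in replicate 2, unlike the value over 6689 genes. Offsets for length, for GC content and for both gave 10, 12 and 13 calls among the 35 genes in TR11B_KO and 6, 12 and 13 in OGT_KO. Among all 12574 tested genes the same offsets gave 2822, 4294 and 3776 calls in TR11B_KO and 2279, 3322 and 3292 in OGT_KO.

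Lists of further chaperone genes gave the wider picture. In the order below, the shares called in OGT_KO were 25%, 15.4%, 0%, 22.7%, 5.26%, 14.3%, 30.8% and 25%, beside 18.3% of all tested genes. In TR11B_KO they were 12.5%, 34.6%, 42.9%, 27.3%, 36.8%, 35.7%, 23.1% and 37.5%, beside 27.6%. They thus lay on both sides of the share of the whole table. Single genes of these lists were also tested by DESeq2, and their calls were not examined under the other alternatives or with a library left out. Of 8 tested HSP70, small heat shock and related genes outside the set, 2 fell in OGT_KO and 1 rose in TR11B_KO. SERPINH1, the collagen chaperone HSP47, fell in OGT_KO (−0.83, adjusted p = 0.00358), and so did HSPA2 (−1.72, adjusted p = 0.0294), while HSPA13 rose in TR11B_KO (0.89, adjusted p = 0.0375). Of 26 other DNAJ genes 1 rose and 3 fell in OGT_KO, and 1 rose and 8 fell in TR11B_KO. DNAJA3, the mitochondrial DNAJ partner of HSPA9, fell in both (−0.95, adjusted p = 0.00596, and −0.98, adjusted p = 0.00356), as did the splicing-associated DNAJC8 (−0.88, adjusted p = 0.03, and −1.07, adjusted p = 0.00794). DNAJC11 fell in TR11B_KO (−1.18, adjusted p = 0.000655).

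Of 14 BAG, exchange factor and ubiquitin genes 0 passed in OGT_KO by edgeR or DESeq2 (1 had an unadjusted p under 0.05), and 3 rose and 3 fell in TR11B_KO. SIL1, the exchange factor of the ER HSP70, rose (0.98, adjusted p = 0.00262), the polyubiquitin gene UBB rose (0.62, adjusted p = 0.011) and BAG5 fell (−0.997, adjusted p = 0.018). Of 22 further HSP90 co-chaperones 1 rose and 4 fell in OGT_KO, and 2 rose and 4 fell in TR11B_KO. PPP5C, the phosphatase bound to HSP90, fell in both (−0.94, adjusted p = 0.000913, and −0.57, adjusted p = 0.0133), as did the immunophilin FKBP4 (−0.77, adjusted p = 0.00433, and −0.61, adjusted p = 0.0109), whereas FKBP8 rose in TR11B_KO (0.81, adjusted p = 0.00575).

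Prefoldin hands actin and tubulin to CCT. Of 19 prefoldin genes and CCT regulators 1 fell in OGT_KO, and 5 rose and 2 fell in TR11B_KO. PFDN5 was at 283, 306 and 348 CPM in NC, at 388, 302 and 356 in OGT_KO and at 818, 957 and 851 in TR11B_KO (1.49 in TR11B_KO, adjusted p = 9.98e-05). PFDN6 also rose in TR11B_KO (1.05, adjusted p = 0.000665). PFDN5 and PFDN6 are short, 596 and 739 bases by the authors' gene length, and their values under a length offset were not examined. The tubulin cofactor TBCB fell in both knockouts (−0.95, adjusted p = 0.00124, and −0.49, adjusted p = 0.0333). Of 14 partners of mitochondrial HSP70 and proteases 2 fell in OGT_KO and 5 rose in TR11B_KO: GRPEL1, its exchange factor, and TIMM44, its anchor at the import channel, fell in OGT_KO (−0.95, adjusted p = 0.00191, and −0.91, adjusted p = 0.00762), and the protease HTRA2 rose in TR11B_KO (0.88, adjusted p = 0.00199).

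Of 13 heat shock factor regulators and inducible targets 2 rose and 2 fell in OGT_KO and 3 rose in TR11B_KO. ATF3, a stress-responsive transcription factor, rose in OGT_KO (1.32, adjusted p = 0.00125) from 5.74, 5.34 and 6.08 to 14.6, 13.3 and 14.8 CPM and did not pass in TR11B_KO (−0.16, adjusted p = 0.623). The elongation factor gene EEF1A1 rose in both (1.03, adjusted p = 0.0127, and 1.26, adjusted p = 0.00314), and DEDD2 fell in OGT_KO (−0.89, adjusted p = 0.00571). Of 16 chaperones of the endoplasmic reticulum 1 rose and 3 fell in OGT_KO, and 2 rose and 4 fell in TR11B_KO. The risen gene in OGT_KO was DNAJC10 (1.28, adjusted p = 0.00123), an ER disulfide reductase, and those in TR11B_KO were CRELD2 (0.96, adjusted p = 0.00103) and SDF2L1 (1.23, adjusted p = 0.0017).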

How the data were processed

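RNA-seq was deposited for 9 A549 libraries, 3 per group. TRIzol was used for total RNA and the VAHTS Universal V6 kit for library preparation, per the labels' protocols. The submitters' processing notes name fastp, HISAT, HTSeq, DESeq2, R 3.2.0 and build GRCh38, without roles or settings. One deposited table holds raw read counts, which the authors did not normalize, and the other the FPKM that the authors computed. FPKM over count gave the authors' gene lengths, whole within 0.01 base for 17919 of 17923 genes.

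Sample titles gave the groups and replicate numbers. Counts of all 9 libraries were filtered (filterByExpr), TMM-scaled and fitted in edgeR 4.0.16 (R 4.3.3) by quasi-likelihood with a mean per group, and p-values were adjusted by Benjamini-Hochberg over 12574 genes, with a call at 0.05. SE is the log2 fold change over the square root of F. The biological coefficient of variation was 0.241. The scripts were tested on simulated data. Alternatives were DESeq2 1.42.0, RLE factors, library totals, other count filters, a fit of only the groups compared, a replicate block, a length offset, limma 3.58.1 on log2(FPKM + 1) and log2(FPKM + 0.1), each library left out, and, chosen after seeing the data, GC and combined offsets and the HSPA1A and HSPA1B sum. GC content, from the longest GENCODE 29 transcript, was known for 93.3% of tested genes.

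The members and lists were chosen with earlier results of these data known. All 36 genes are named, with OGT, TNFRSF11B and OGA and, of each further list, up to 3 called genes of smallest adjusted p. No protein sequences were compared, and listed genes outside the table were not analysed here. Replicates of a group were not the same library deposited again: each pair differed by more than sampling noise.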

Additional observations from a re-analysis of the deposited data

Results flagged for a closer look

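The genes below differed between the knockouts themselves by the direct edgeR test (OGT_KO minus TR11B_KO, Benjamini-Hochberg adjusted). HSPH1 was 1.45 higher in OGT_KO on the log2 scale (1.446, adjusted p = 0.000254). HSPB1 was 0.974 higher (adjusted p = 0.00164), and HSP90AA1 0.602 higher (adjusted p = 0.0268). CCT6A was 0.518 higher (adjusted p = 0.0427), while CCT7, another subunit of the same ring, differed by −0.758 (adjusted p = 0.00241). DNAJA2 differed by −1.043 (adjusted p = 0.00902) and CDC37 by −0.531 (adjusted p = 0.0207). The calls of HSPH1, HSPB1 and CCT7 were made in all 21 alternatives. Those of HSP90AA1, CDC37 and CCT6A were each lost in 5 of the 12 settings that keep all libraries (adjusted p up to 0.229, 0.401 and 0.125) and without 3, 2 and 7 of the 9 libraries, and that of DNAJA2 in 3 settings (up to 0.147).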

How the results depend on the processing

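No chaperone gene of the set changed direction in a called result under any of the 21 alternatives. In the fit of only the groups compared, the calls among its genes were 23 for OGT_KO against NC, 4 for TR11B_KO against NC and 4 for OGT_KO against TR11B_KO, and among all tested genes 5095 for OGT_KO against NC (2303 in the shared fit) and 2251 for TR11B_KO against NC (3469). Scaling by library totals gave 6 chaperone gene calls in OGT_KO against NC, and the length offset 6, beside 2259 and 2279 among all tested genes. Between the knockouts, no low-count filter gave 12 chaperone gene calls and the GC offset 12, beside 4574 and 4911 among all tested genes. Leaving out each library in turn gave 3 to 19 chaperone gene calls in OGT_KO against NC, 4 to 18 in TR11B_KO against NC and 4 to 16 between the knockouts, and among all tested genes 1072 to 4536, 1813 to 4463 and 2401 to 5307. Library totals split all calls into 1369 higher and 890 lower in OGT_KO (median 0.15), 1180 and 2030 in TR11B_KO (−0.15), and 3084 and 1268 between the knockouts (0.31). With RLE factors the TR11B_KO split was 1872 and 1623, and with the length offset the OGT_KO split was 1315 and 964. The cause of these shifts was not tested.

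Same-numbered libraries had deviations correlated at −0.199 to 0.069, with −0.012, 0.069 and 0.062 in OGT_KO against NC. In that comparison 4 of 6 libraries correlated best with their own number, against 0 of 6 in each of the other comparisons. The main fit used no pairing by replicate number. With a replicate block the chaperone gene calls were 6 in OGT_KO against NC, 9 in TR11B_KO against NC and 4 between the knockouts. All tested genes then gave 1609, 2612 and 3403 calls in the same order.

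With 3 libraries a group, calls with an adjusted p near 0.05 were often lost when a library was left out, whichever of the compared libraries it was. Genes under about 1 CPM, such as HSF2, DNAJB4 and CRYAB, are limited by depth.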
